A study of Mus musculus with 2 samples.

Results

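Ubd and the immunoproteasome were followed in single cells dissociated from tumours of the mouse mammary carcinoma line 4T1, which had been grown under the skin of mice. The members are the 6 genes Ubd, Psmb8, Psmb9, Psmb10, Psme1 and Psme2, found by symbol among the 32285 genes listed for both libraries. Ubd was picked with its low whole-tumour ratio already known, and the other members for their function, so the whole-tumour values are a description. The first library came from tumour-bearing mice given AIE COF-mediated phototherapy and is called treated here. The second came from tumour-bearing mice given PBS. Both groups carried 4T1 tumours, which were taken on day 7 after phototherapy. The strain is labelled C57BL/c, a name not interpreted here, and the labels give no age, sex or number of animals per cell suspension. With 1 library per group no difference below has a replicate check or a p-value, and every interval is a 95% interval that covers counting error only. Levels are in CPM, a gene's UMIs (counted molecules) scaled to the total UMIs of the same cells.

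Ubd encodes FAT10, a ubiquitin-like modifier that is attached to other proteins and delivers them to the proteasome for degradation. The proteasome is the barrel-shaped protease that breaks down tagged proteins, and its 20S core holds 3 catalytic subunits, encoded in most cells by Psmb5, Psmb6 and Psmb7. In immune cells, and in other cells exposed to interferon gamma, Psmb8, Psmb9 and Psmb10 are built in instead, which gives the immunoproteasome. Psme1 and Psme2 encode the alpha and beta subunits of the 11S cap, also called the proteasome activator PA28, which docks on the ends of the core. Interferon gamma and tumour necrosis factor are known to raise Ubd together, and peptides cut by the immunoproteasome are loaded on MHC class I molecules for display to CD8 T cells.

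The start regions of Ubd and Psme1 are shown because, of the members whose counts can be read without reserve, they are the ones in which a motif of the interferon or NF-kB pathways was found. Each stretch runs from 250 bases before to 50 bases after the start given by RefSeq for GRCm38.p6, 5′ to 3′ on the gene's own strand, and the matches are in capitals.
Ubd, chr17:37193642-37193941, plus strand: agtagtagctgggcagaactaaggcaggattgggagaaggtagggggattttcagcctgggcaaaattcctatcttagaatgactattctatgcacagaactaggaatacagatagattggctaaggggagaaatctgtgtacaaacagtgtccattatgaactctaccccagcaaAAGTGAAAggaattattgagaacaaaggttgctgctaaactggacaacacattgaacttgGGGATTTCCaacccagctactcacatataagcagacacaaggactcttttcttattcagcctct
Psme1, chr14:55578244-55578543, plus strand: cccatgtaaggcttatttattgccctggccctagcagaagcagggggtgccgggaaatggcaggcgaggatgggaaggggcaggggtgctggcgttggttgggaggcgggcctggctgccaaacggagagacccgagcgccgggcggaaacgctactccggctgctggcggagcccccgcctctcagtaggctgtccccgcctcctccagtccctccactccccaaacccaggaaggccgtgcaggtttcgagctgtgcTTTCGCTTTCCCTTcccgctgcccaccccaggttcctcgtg
The second run of capitals in Ubd is a match to the NF-kB motif GGGNTTTCC, which begins 14 bases before the start and is found in 1.68% of 32851 promoters of this length. The first run, 74 bases before the start, matches AANNGAAA, the core motif of the interferon regulatory factors, which is common and found in 23.9% of them. The capitals in Psme1 are 2 overlapping matches to the same core motif on the minus strand, just after the start. Psmb8 held 1 match to TTCNNNGAA, the interferon gamma-activated site motif, found in 8.30%. No match to these 3 motifs was found in the windows of Psmb9, Psmb10 or Psme2. Both strands were searched, all 6 members matched a RefSeq entry, and the motifs were chosen after the sequences had been seen, so a match is a description of these letters.

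Psmb10 and Psmb8 cannot be read from these files as the other members can. Psmb10, the inducible partner of Psmb7, had 0 UMIs in every class of both libraries. It lies on chromosome 8 from 105935735 to 105938444 on the minus strand (GRCm38), wholly inside the antisense gene Gm16156, which had 31 treated and 63 PBS UMIs. Of the protein-coding genes inside a gene of the opposite strand, 665 of 667 were at 0 in both libraries, against 2226 of 14704 without any overlap. Psmb8, the inducible partner of Psmb5, had 220 treated and 344 PBS UMIs in all retained cells. It lies on chromosome 17 from 34197721 to 34201454 on the plus strand, and 57.3% of it, including its last 500 bases, is overlapped by the antisense gene Gm20496. Both genes are therefore uncertain, and Psmb10 is given no ratio. Ubd (chromosome 17, 37193892 to 37196095, plus strand) and Psme2 (chromosome 14, 55587441 to 55591113, minus strand) overlap no listed gene. Psmb9 (chromosome 17, 34181987 to 34187764, minus strand) shares 212 bases at its 5′ end with Tap1, and Psme1 (chromosome 14, 55578123 to 55581529, plus strand) shares 14 bases at its 3′ end with Emc9.

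Filters left 8619 treated cells with a median of 3880 UMIs and 7864 PBS cells with a median of 6380. Clusters with little Ptprc, which encodes CD45, the surface marker of leukocytes, and with many UMIs per cell are called Ptprc-low. There were 2616 treated and 3095 PBS cells of this class, in 5 clusters, and they held 77.6% of treated and 83.2% of PBS UMIs. Of the 9 markers fixed for 4T1 carcinoma, Hmga2 stood at 381 and 352 CPM and Rhox5 at 770.3 and 731 CPM in treated and PBS Ptprc-low cells. The other 7, Epcam, Krt8, Krt18, Krt7, Krt19, Cdh1 and Cldn7, were at or below 0.701 CPM in both libraries, so the cells are called by the rule that chose them and not carcinoma. Of the barcodes, 39 were shared between the libraries, 27 of them among retained cells.

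All 5 members that could be measured were lower in the treated tumour as a whole, each with an interval of the ratio below 1, as held for 27.1% of the 15637 genes with at least 50 UMIs. Intervals narrow as UMIs rise, so a gene with many UMIs can have one below 1 at a small difference. Such shares of genes, here and below, are not matched for UMIs and are not a like-for-like background. Ubd stood at 38.4 CPM in the treated library (3918 UMIs), against 65.4 CPM in the PBS library (8295 UMIs), a log2 ratio of -0.77 (-0.82 to -0.71). Psmb9 stood at 111 CPM in the treated library, against 127 CPM in the PBS library, a log2 ratio of -0.20 (-0.23 to -0.16). Psme1 stood at 199.6 CPM in the treated library, against 234 CPM in the PBS library, a log2 ratio of -0.23 (-0.26 to -0.21). Psme2 stood at 407 CPM in the treated library, against 459 CPM in the PBS library, a log2 ratio of -0.17 (-0.19 to -0.15). These last 3 values depend on how cells are weighted: Psmb9 had -0.08 with each cell weighted equally, Psme1 -0.07 with cells thinned to 1000 UMIs, and Psme2 -0.07 with each class of at least 10 cells weighted equally. Only Ubd among the 5 was at least 1.5-fold lower, a fold that 4.94% of those genes passed in that direction and 8.61% in the other. This contrast helped to choose Ubd, so nothing is read from these counts. The median log2 ratio of the 4 immunoproteasome members with UMIs was -0.21, beside a median of 0.0076 over all genes measured.

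Ubd was carried almost wholly by Ptprc-low cells, which held 93.9% of treated and 94.8% of PBS Ubd UMIs. Its level in them was 46.4 CPM in treated cells, against 74.5 CPM in PBS cells, a ratio of 0.623 (0.599 to 0.648). It was the only member of the 5 measured there at least 1.5-fold lower, with 5.19% of 14211 genes past that fold. All 5 had intervals below 1 there, as did 25.8% of genes, a share not matched for UMIs. Since these cells hold nearly all Ubd UMIs, the Ubd ratios in them and in their clusters largely repeat the contrast by which Ubd was picked, and they too are a description from which nothing is read. The clusters came in the same order in both libraries. Cluster 5, led by H19, Tnc, Cilp and Postn, genes of an imprinted RNA and of extracellular matrix proteins, was highest, at 130 CPM in treated cells and 166 CPM in PBS cells. Cluster 1, led by Ankrd37, Nos2 and Ndrg1, of which Ankrd37 and Ndrg1 are known hypoxia-induced genes, followed at 59.7 CPM in treated cells and 98.3 CPM in PBS cells. Cluster 3, led by histone genes, stood at 31.6 CPM in treated cells and 51.5 CPM in PBS cells. Cluster 2, led by the mitotic genes Cdc20 and Cenpa among others, stood at 24.0 CPM in treated cells and 46.9 CPM in PBS cells. Cluster 7, whose leading genes include Dhdh and Alox8, stood at 23.3 CPM in treated cells and 32.4 CPM in PBS cells. The intervals of clusters 2 and 7 overlap in the treated library and those of clusters 3 and 2 in the PBS library, so neither pair has a clear order there.

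**Figure D1:**
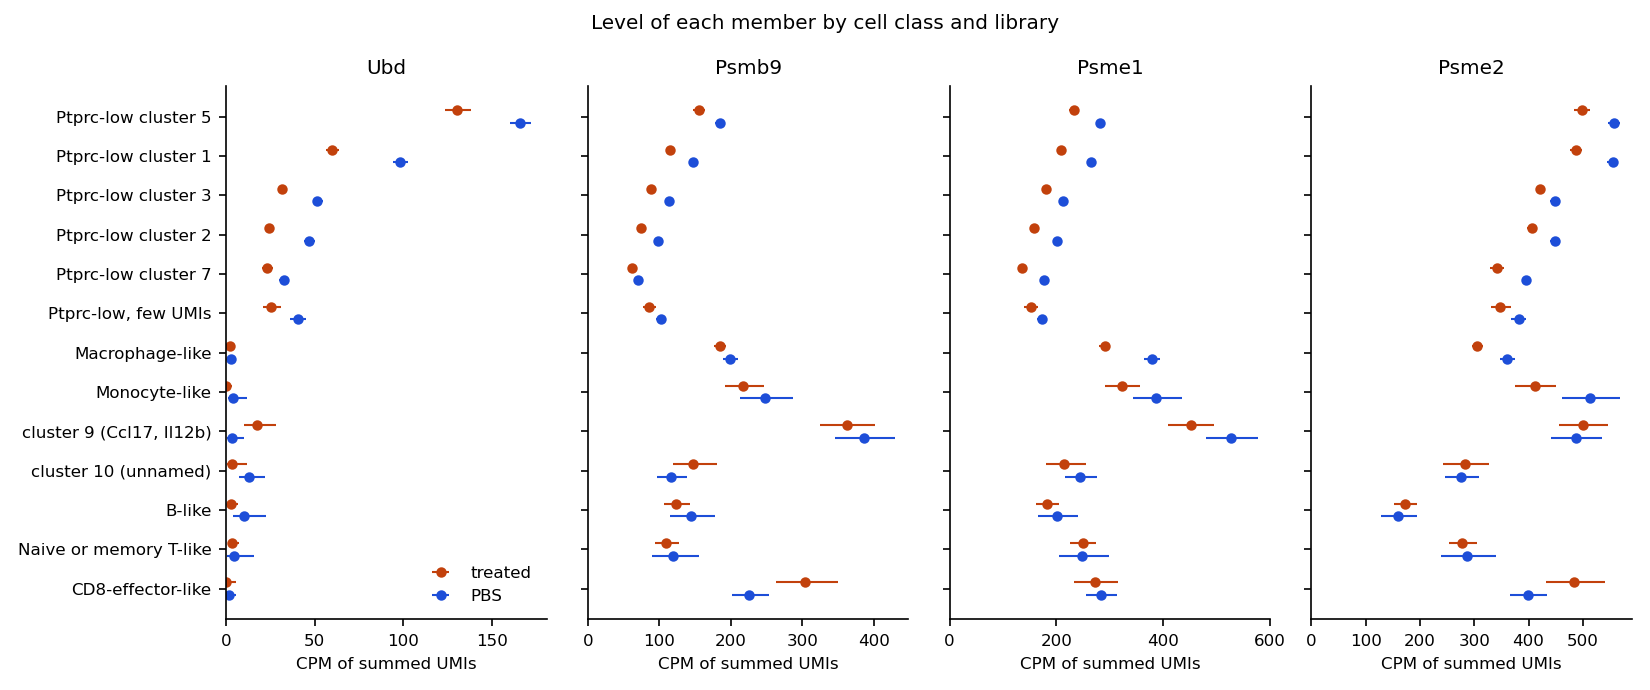
CPM of summed UMIs (x axis) of Ubd, Psmb9, Psme1 and Psme2 in 13 classes or clusters (y axis), treated above PBS in each row, with exact Poisson 95% intervals for counting error. Ubd reached 130 CPM in treated and 166 CPM in PBS cells of cluster 5 and stayed at or below 17.6 CPM in the 7 immune rows, where Psmb9, Psme1 and Psme2 were well detected.

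The treated value of Ubd was the lower in all 5 Ptprc-low clusters, with an interval below 1 in each. Of the 10306 genes measured in every cluster 3.43% did so, a share not matched for UMIs. The ratio was 0.512 (0.457 to 0.573) in cluster 2, 0.608 (0.563 to 0.655) in cluster 1, 0.614 (0.561 to 0.671) in cluster 3, 0.718 (0.612 to 0.839) in cluster 7 and 0.786 (0.735 to 0.841) in cluster 5. The intervals of clusters 5 and 7, those of the highest and the lowest level, overlap. Cluster 5 also made up fewer of the Ptprc-low cells in the treated library, with 371 of 2616 cells, against 630 of 3095 in the PBS library. When treated clusters were given the PBS clusters' shares of UMIs, the log2 ratio in Ptprc-low cells was -0.57, against -0.68 as they occurred. Cells low in Ptprc with few UMIs, a median of at most 6096 per cluster, stood at 25.5 CPM in the treated library and 40.5 CPM in the PBS library, a log2 ratio of -0.66. Of their 4 clusters, cluster 8 had 30.9 CPM in treated and 49.2 CPM in PBS cells with an interval of the ratio below 1, and cluster 21 had 0 UMIs in treated and 7 in PBS cells. Cluster 21, led by Saa3, Acta2 and Rgs5, met all 7 fibroblast and all 5 pericyte markers detected, but stays unnamed by the naming rule. Clusters 12 (29.6 and 30.6 CPM) and 0 (9.91 and 13.6 CPM) had intervals that include 1.

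Fewer treated than PBS Ptprc-low cells had a Ubd UMI, and fewer had many. A share of cells with a UMI also falls when the level per cell falls. These shares therefore do not separate fewer cells with the gene from less of it per cell, and they too are a description. Before thinning, 46.0% of treated and 61.3% of PBS Ptprc-low cells had a Ubd UMI, 51 treated and 176 PBS cells had 10 or more, and the highest cells had 49 and 78. The 10% of cells with the most Ubd held 55.4% of treated and 49.0% of PBS UMIs of the gene, and without the highest cell the levels were 45.9 and 73.8 CPM. Every cell was then thinned to 10000 UMIs, which left out 231 treated and 335 PBS cells. A Ubd UMI was found in 28.7% (26.9 to 30.6%) of treated cells and in 40.1% (38.3 to 42.0%) of PBS cells, and 3 or more in 5.32% and 9.49%. In cluster 5 the shares were 54.3% (48.8 to 59.7%) in treated cells and 61.8% (57.6 to 65.9%) in PBS cells, so these intervals overlap. They were 34.3% and 47.0% in treated and PBS cells of cluster 1, 22.3% and 32.6% in cluster 3, 20.2% and 31.0% in cluster 2, and 18.2% and 24.5% in cluster 7. Thinned further, to 1000 UMIs, 4.03% of treated and 7.59% of PBS Ptprc-low cells had a Ubd UMI. T-like cells, taken as cells that should lack the gene, had one in 0.227% and 0.780% of treated and PBS cells, with median UMIs per cell of 1625 and 2509, where Ptprc-low cells had 28928 and 32715.

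**Figure D2:**
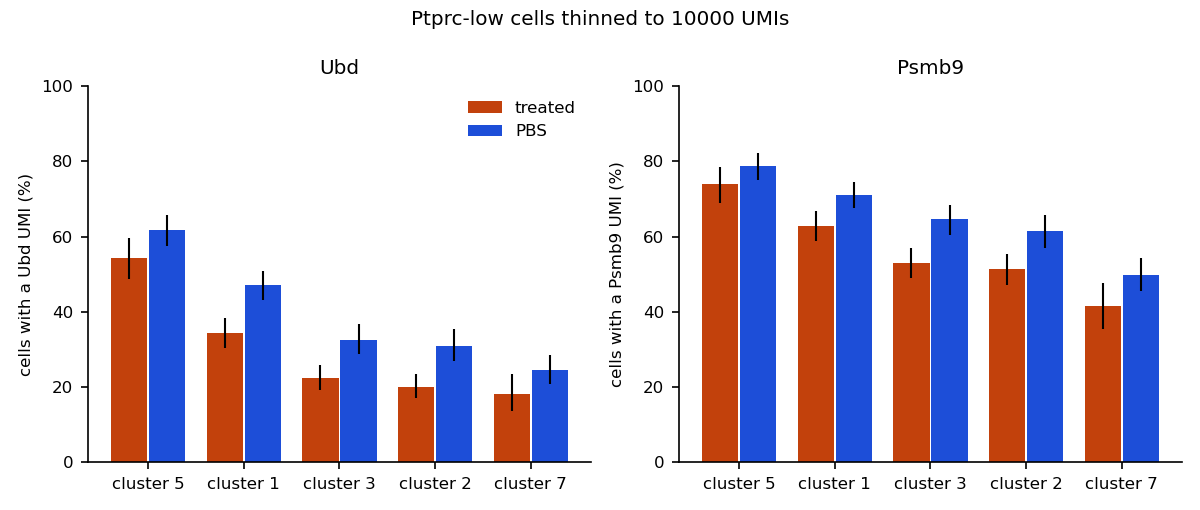
Share of Ptprc-low cells with a UMI of Ubd (left) or Psmb9 (right) after thinning each cell to 10000 UMIs, by cluster, treated bars left of PBS bars, with exact Clopper-Pearson 95% intervals. In cluster 5 the Ubd bars reach 54.3% (treated) and 61.8% (PBS), and in cluster 7 they reach 18.2% and 24.5%.

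In immune cells Ubd was close to absent. Macrophage-like cells had 23 treated and 20 PBS UMIs of it (2.13 and 2.78 CPM), T-like cells 6 and 10, B-like cells 4 and 6, and monocyte-like cells 0 and 3, where 0 UMIs allow up to 2.59 CPM. Set against Hmga2, a gene of the Ptprc-low cells, immune cells as a whole had 7.46 to 15.8 Ubd UMIs per 100 Hmga2 UMIs (interval) in the treated library and 14.8 to 30.2 in the PBS library. Ptprc-low cells had 12.2 (11.8 to 12.6) and 21.2 (20.7 to 21.7). The intervals of immune and Ptprc-low cells overlap in each library. Whether the few Ubd UMIs of immune cells come from these cells or from free RNA was not tested. Cluster 9 was the exception by count, with 17 treated and 3 PBS UMIs, a ratio of 5.08 (1.47 to 27.1). This cluster was led by Ccl17 and Il12b and met 8 of 8 conventional dendritic markers, but stays unnamed because a mast cell marker, Kit, was among its leading genes. All 17 treated UMIs came from 4 of its 158 cells, with 2, 2, 5 and 8 each, and each of the 4 also had Hmga2 and Rhox5 UMIs, so the difference rests on those cells. The 3 PBS cells had 1 Ubd UMI each and none of Hmga2.

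The endothelial-like cells, 24 treated and 18 PBS, had Ubd at 349 CPM in treated and 249 CPM in PBS cells. These levels came from 3 and 5 cells, and 1 treated cell held 80 of 83 UMIs, without which the treated level was 13.4 CPM. In the PBS library 27 and 13 of 46 UMIs came from the highest and second highest cell. Here Ubd did not go with Hmga2, of which the cells had 2 treated and 3 PBS UMIs. Cluster 20, unnamed and led by Igfbp3, Cldn5, an endothelial junction gene, and others, had 5 Ubd UMIs in 29 treated cells (79.0 CPM) and 2 in 5 PBS cells (278 CPM). Both were too small for a comparison between libraries.

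**Figure D3:**
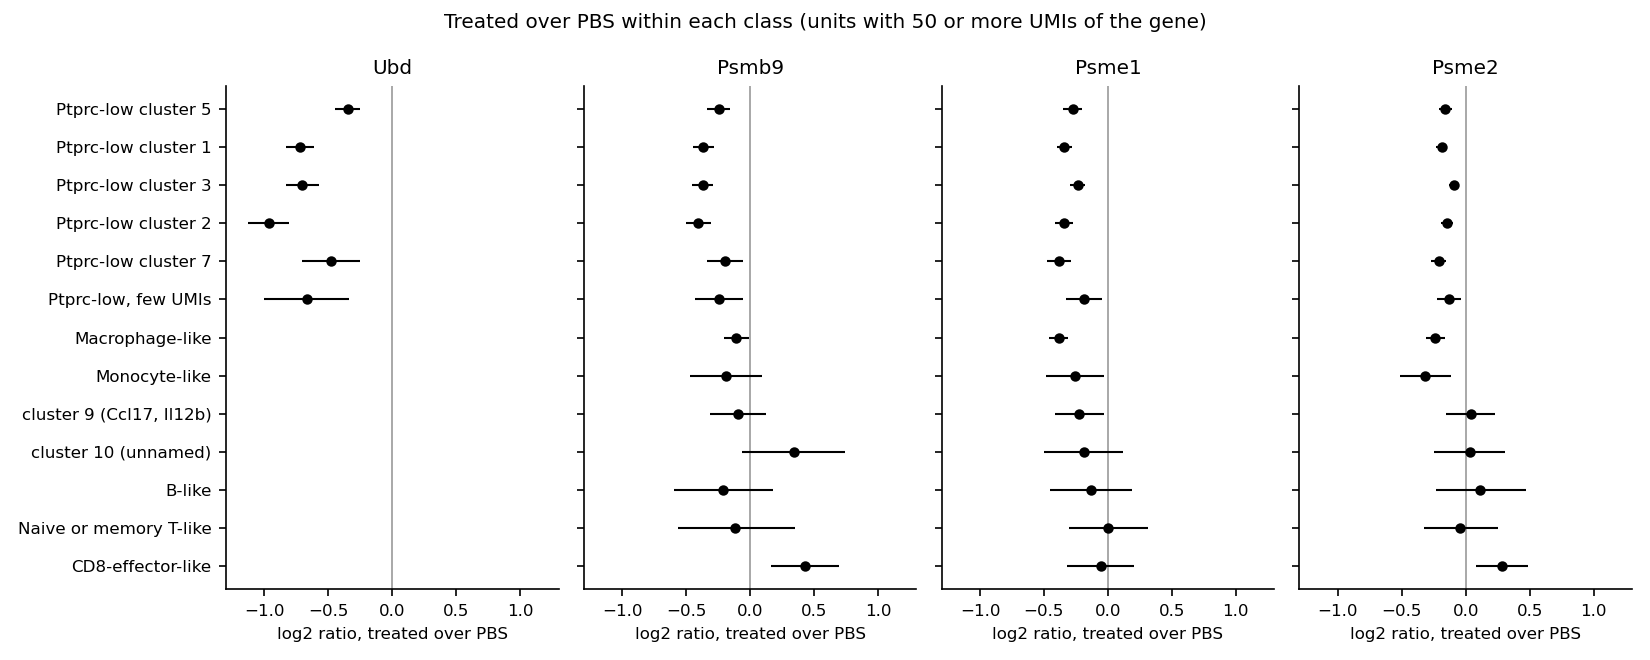
Log2 ratio of CPM, treated over PBS (x axis), of Ubd, Psmb9, Psme1 and Psme2 within each class or cluster (y axis), with exact conditional binomial 95% intervals; units with under 50 UMIs of a gene are not drawn. All 4 genes lie below 0 in the 5 Ptprc-low clusters, and Psmb9 and Psme2 lie above 0 in CD8-effector-like cells, at 0.43 and 0.28.

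Psmb9, the inducible partner of Psmb6, was lower in treated Ptprc-low cells, at 95.1 CPM, against 119.9 CPM in PBS cells, a ratio of 0.793 (0.770 to 0.816). All 5 clusters showed it, with ratios of 0.755 to 0.875 and each interval below 1. Its levels followed those of Ubd over the clusters, with 155.5 CPM in treated and 184 CPM in PBS cells of cluster 5 and 61.8 and 70.6 CPM in cluster 7. Psmb8 had 1.96 CPM in treated and 2.52 CPM in PBS Ptprc-low cells (155 and 266 UMIs), a ratio of 0.777, and carries the reserve on its overlap given above.

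Both subunits of the 11S cap moved the same way, Psme1 by more than Psme2. Psme1 stood at 182 CPM in treated and 224 CPM in PBS Ptprc-low cells, a ratio of 0.811 (0.794 to 0.828), and its ratio was 0.768 to 0.848 over the 5 clusters. Psme2 stood at 432 CPM in treated and 477 CPM in PBS Ptprc-low cells, a ratio of 0.906 (0.894 to 0.918), and its ratio was 0.864 to 0.940 over the 5 clusters. Each of these intervals was below 1, as held in every cluster for the same 3.43% of genes, which are not matched for UMIs. The median log2 ratio of the immunoproteasome members was -0.32 in Ptprc-low cells, beside -0.0029 over all 14211 genes measured there. None of Psmb8, Psmb9, Psme1 and Psme2 was 1.5-fold lower in Ptprc-low cells as a whole.

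Unlike Ubd, Psmb9, Psme1 and Psme2 were well detected in immune cells, and their differences there were less alike. In macrophage-like cells Psme1 stood at 290.0 CPM in the treated library and 379 CPM in the PBS library, a log2 ratio of -0.38 (-0.46 to -0.31). Psme2 stood at 306 CPM in treated and 361 CPM in PBS macrophage-like cells (-0.24, -0.31 to -0.16), and Psmb9 at 185 and 199.4 CPM (-0.11, -0.21 to -0.0091). None of the 3 passed 1.5-fold, as 6.14% of 10174 genes did downwards. Monocyte-like cells had 411 CPM of Psme2 in the treated library and 513 CPM in the PBS library (-0.32, -0.52 to -0.12), and 323 and 387 CPM of Psme1 (-0.26, -0.49 to -0.032). Their Psmb9, at 217 and 248 CPM in treated and PBS cells, did not differ beyond counting error.

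T-like cells as a whole had 166 CPM of Psmb9 in the treated library and 198 CPM in the PBS library (-0.26, -0.44 to -0.071), and 348 and 393 CPM of Psme2 (-0.18, -0.31 to -0.046). Different clusters make up this class, with cluster 4 holding 1228 of 1557 treated cells and 315 of 692 PBS cells and cluster 15, led by genes of cytotoxic cells such as Gzmb and Cd8a, 115 and 249, so T-like cells were clustered again and named by subset. CD8-effector-like T cells went the other way for a pair of members. Psmb9 stood at 304 CPM in the 152 treated cells and 226 CPM in the 270 PBS cells, a log2 ratio of 0.43 (0.16 to 0.69). Psme2 stood at 485 CPM in treated and 398 CPM in PBS cells of this class, a log2 ratio of 0.28 (0.077 to 0.49), while Psme1, at 272 and 283 CPM, did not differ beyond counting error. The class joins sub-cluster 10, led by genes of dividing cells such as Mki67 and Birc5, with 38.2% of its treated and 24.1% of its PBS cells, and sub-cluster 5. On its own, sub-cluster 10 had 0.42 (0.053 to 0.79) for Psmb9 and 0.47 (0.17 to 0.77) for Psme2, while sub-cluster 5 had 0.37 (-0.027 to 0.76) and 0.12 (-0.18 to 0.41), which include 0. Cluster 15 of the first clustering had 292 CPM of Psmb9 in treated and 237 CPM in PBS cells (0.30, -0.013 to 0.61) and a Psme2 value of 0.16 (-0.085 to 0.41). Neither difference of the class reached 1.5-fold, as 6.87% of 5040 genes did upwards. Naive or central memory T-like cells had 109 CPM of Psmb9 in the treated library and 119 CPM in the PBS library, and B-like cells had 124 and 144 CPM, with intervals of the ratio that include 1. Cluster 9 had the highest Psmb9 level of the 13 units plotted, 362 CPM in treated and 386 CPM in PBS cells, and the highest Psme1, 451 and 527 CPM (-0.22, -0.42 to -0.032). Whether the CD8-effector-like difference is unlike that of Ptprc-low cells was not tested, since there is 1 library per group.

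The share of Psmb9 in the summed UMIs of Psmb9 and Psmb6 sets the inducible subunit against the constitutive one it replaces. It was 24.1% (23.6 to 24.6%) in treated and 28.1% (27.7 to 28.5%) in PBS Ptprc-low cells. It was highest in cluster 5 of these, at 36.9% in treated and 40.3% in PBS cells, then 27.6% and 32.9% in cluster 1, 22.1% and 26.7% in cluster 3, 19.6% and 23.3% in cluster 2, and 17.2% and 18.0% in cluster 7. Immune cells had larger shares, of 44.5% and 43.7% in treated and PBS macrophage-like cells, 54.9% and 57.3% in monocyte-like cells, 55.3% and 51.4% in CD8-effector-like cells and 67.5% and 67.8% in cluster 9. In these immune classes the 2 libraries did not differ beyond counting error. Psmb6 itself stood at 299.4 CPM in treated and 307 CPM in PBS Ptprc-low cells, a log2 ratio of -0.04 (-0.062 to -0.014). The share compares classes and libraries, not the amounts of the 2 proteins.

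Within Ptprc-low cells, those with a Ubd UMI had more Psmb9, Psme1 and Psme2 than those without, while Psmb8 had too few UMIs to be read (48 treated, 72 PBS). At 10000 UMIs per cell, Psmb9 stood at 87.5, 114, 134 and 161 CPM in treated cells with 0, 1, 2 and 3 or more Ubd UMIs, and at 112, 138, 160.2 and 181 CPM in the same groups of PBS cells. Psme1 stood at 170.5, 199.8, 219.6 and 227 CPM in those treated cells, and at 215, 236, 257 and 260.3 CPM in PBS cells. Psme2 stood at 413, 480.2, 517 and 531 CPM in treated cells, and at 452, 490.0, 570 and 556 CPM in PBS cells. The constitutive subunit Psmb6 had 301 CPM without Ubd and 320 CPM at 3 or more in treated cells, and 303 and 318 CPM in PBS cells, with overlapping intervals. Psmb5 had 160 and 139 CPM in treated cells, and 168 and 146 CPM in PBS cells. The rise was not particular to the members. In treated cells Cxcl9 went from 11.2 to 181 CPM, Gbp2 from 141 to 594 and H2-K1 from 1303 to 2441. Tap1 went from 31.5 to 70.9 CPM, Irf1 from 111 to 176 and Nlrc5 from 38.5 to 66.9. In the same treated cells Psma7 had 956 and 983 CPM, Actb 1821 and 1862, and Hmga2 384 and 342. In PBS cells Psma7 had 868 and 773 CPM, Actb 2035 and 2104, and Hmga2 352 and 274. Among cells without a Ubd UMI at this depth, 1700 treated and 1653 PBS, Psmb9, Psme1 and Psme2 were still lower in the treated library.

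**Figure D4:**
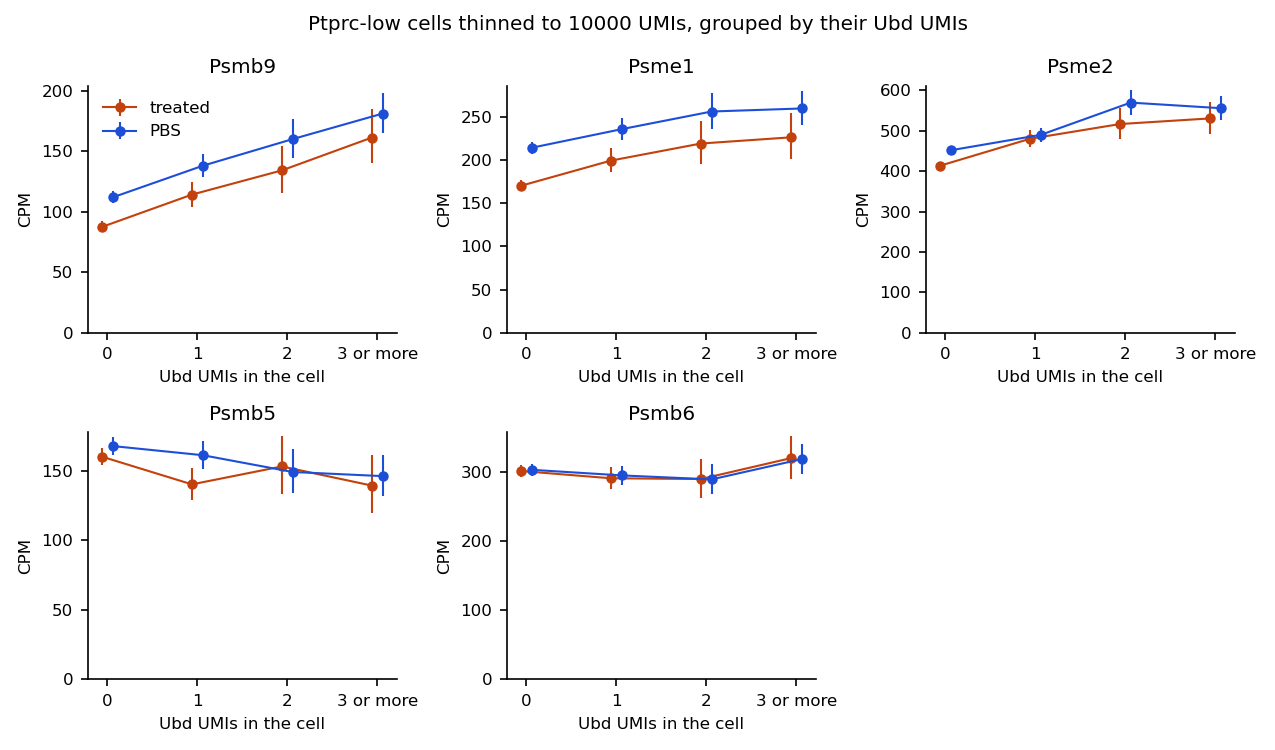
CPM (y axis) of Psmb9, Psme1, Psme2, Psmb5 and Psmb6 in Ptprc-low cells thinned to 10000 UMIs and grouped by their Ubd UMIs (x axis), treated and PBS libraries in separate lines, with exact Poisson 95% intervals. Psmb9 goes from 87.5 to 161 CPM over the groups of treated cells and from 112 to 181 CPM over those of PBS cells, while Psmb6 stays near 300 CPM.

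These groups hold clusters in different proportions, so the cells with a Ubd UMI were also set against those without inside each cluster. Over all Ptprc-low cells Psmb9 was 1.45 times as high with a Ubd UMI in treated cells and 1.37 times in PBS cells. Psmb9 was higher in the cells with a Ubd UMI than in those without in 5 of 5 clusters of both libraries, by 1.02 to 1.47 times in treated and 1.02 to 1.43 times in PBS cells. The intervals lay apart in 2 treated and 3 PBS clusters. Psme1 was higher by 1.04 to 1.21 times in treated and 1.01 to 1.13 times in PBS cells, with intervals apart in 1 treated and 0 PBS clusters. Psme2 was higher in 5 of 5 treated clusters (1.04 to 1.19 times, 3 intervals apart) and 4 of 5 PBS clusters (0.956 to 1.19 times, 2 apart). The constitutive Psmb6 was higher in 2 of 5 treated clusters (0.889 to 1.11 times, 0 apart) and 4 of 5 PBS clusters (0.917 to 1.08 times, 0 apart). In cluster 5 Psmb9 was at 163 CPM with and 159.7 CPM without a Ubd UMI in treated cells, and at 191 and 187 CPM in PBS cells, which did not differ beyond counting error. Cells are not replicates, and these comparisons stay inside a library.

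Which genes shared the pattern of Ubd depended on the cells compared. Over 18 pairs of named class and library, the genes of highest correlation with Ubd in log CPM were Arhgap29 (Pearson r = 0.96), Ninl, Mras, Prkd1, Adamtsl3, Pwwp3b, P3h3 and Pdgfra, out of 11114 genes. Psmb9 and Psme1 went the opposite way to Ubd over those classes (r = -0.57 and -0.50). Over the 10 pairs of Ptprc-low cluster and library, which were added after the data had been seen, the highest were Mmp9 (r = 0.99), H2-D1, AC133103.1, Def8, Ifngr1, Aebp1, Apol9a and Malat1. There Psmb9 had r = 0.98, Psme1 0.94 and Psme2 0.91, against -0.57 for Psmb5 and -0.71 for Psmb6. Such values were common over these pairs, as Psmb9, Psme1 and Psme2 ranked only 70, 448 and 810 among the 11114 genes. For the mean of the other members over named classes, Rbpj (r = 0.86), Atp5l, Atp5j, Cnnm2, Ndufa1, Tmem256, Abhd5 and Pigf were most alike. That mean takes in Psmb8 and Psmb10, which cannot be read as the others can. Psmb9, Psme1 and Psme2 themselves had r = 0.60, 0.59 and 0.67 with it, so these genes do not stand for the pattern of those members. The points of each correlation share their library and depth.

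In Ptprc-low cells the rest of the proteasome was mostly higher, where the inducible members were lower. There 9 of 11 other 20S subunits and 14 of 18 subunits of the 19S cap, which unfolds ubiquitin-tagged proteins, were higher in the treated library, with medians of 0.14 and 0.12 on the log2 scale. Of all genes measured in Ptprc-low cells, 50.6% were lower. Among them Psmb3, Psma2 and Psma1 of the core had log2 ratios of 0.28, 0.26 and 0.25, and Psmd1, Psmd8 and Psmc5 of the 19S cap 0.25, 0.21 and -0.14. Of the constitutive catalytic subunits, Psmb5 had -0.08, Psmb6 -0.04 and Psmb7 0.21, the last with Nek6 over its end. The list of other caps, inhibitor and assembly factors had a median of 0.087, with 0.27 for Psme3, which encodes another 11S subunit, 0.17 for the assembly factor Psmg1 and 0.09 for the inhibitor Psmf1. None of these genes was 1.5-fold higher or lower, where 4.25% of genes were higher and 5.19% lower. In T-like cells, by contrast, 11 of 11 other 20S and 18 of 18 19S subunits were lower in the treated library (medians of -0.29 and -0.26). In monocyte-like cells 9 of 11 and 13 of 17 were (-0.13 and -0.21). Of all genes measured, 55.4% were lower in T-like and 53.2% in monocyte-like cells. The make-up of T-like cells differs between the libraries, with 152 of 1557 treated and 270 of 692 PBS cells CD8-effector-like. The part of this in the T-like values was not tested. The difference between classes was not tested.

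The genes that attach or bind FAT10 did not go with Ubd as a list. Of the 6, 3 were higher and 3 lower in treated Ptprc-low cells, with a median log2 ratio of 0.069. Ube2z, the enzyme that conjugates FAT10, had 0.24, Sqstm1, an autophagy receptor known to bind it, 0.21, and Mad2l1, a spindle checkpoint protein known to bind it, 0.17.

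Of the 12 class I peptide loading genes 10 were measured, and 9 of these were lower in treated Ptprc-low cells, the direction of the immunoproteasome members. Of all genes measured there, 50.6% were lower. The median log2 ratio was -0.12 in Ptprc-low cells, with 8 intervals below 1 and no gene at 1.5-fold. Of all genes 25.8% had such an interval, a share not matched for UMIs. Nlrc5, the activator of class I genes, had -0.40, the class I gene H2-D1 -0.26, and Tapbp, which holds class I molecules at the peptide transporter, -0.19. B2m and Tapbpl of this list were listed at 0, and both lie inside a gene of the opposite strand.

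The interferon and tumour necrosis factor lists were divided in Ptprc-low cells, where 50.6% of all genes measured were lower. In Ptprc-low cells 7 of 9 type I interferon genes were lower, with a median of -0.21, and Isg15, a ubiquitin-like modifier as FAT10 is, stood at 38.1 CPM in treated and 65.2 CPM in PBS cells (log2 ratio -0.78), the only one past 1.5-fold. Ifit1, an RNA-binding antiviral protein, had -0.42, and the receptor gene Ifnar1 0.15. Of the interferon gamma list 7 were higher and 8 lower, with a median of -0.0008. The chemokine gene Cxcl9 had 0.32, the feedback inhibitor Socs3 0.38 and the transcription factor Irf8 0.51. These 3 were picked by the rule for named genes and do not stand for the list, of which 8 genes were lower. The 9 macrophage markers, all detected, summed to 71.4 CPM in treated and 54.2 CPM in PBS Ptprc-low cells, and the 8 T cell markers to 9.65 and 5.69 CPM. The NK cell markers summed to 186 and 174 CPM, but they include Klra4, a leading gene of Ptprc-low cluster 2. That sum is therefore not a measure of NK cell RNA alone. The markers of monocytes (1160 and 1196 CPM), B cells (127 and 145 CPM) and endothelial cells (6.49 and 6.67 CPM) were lower in the treated library. In their own classes the macrophage markers summed to 13792.8 and 17439.5 CPM and the T cell markers to 4663 and 5060 CPM. The NK cell markers summed to 5366 and 5080 CPM in theirs, and the monocyte markers to 11392 and 9288 CPM. The part of these markers in the values above was not tested. Of the tumour necrosis factor and NF-kB list 7 of 9 were higher, with a median of 0.069. Tnfaip3, an inhibitor of NF-kB signalling, stood at 30.7 CPM in treated and 16.9 CPM in PBS Ptprc-low cells (log2 ratio 0.86), Nfkb1, the gene of an NF-kB subunit, had 0.55, and Il6 had 15 and 29 UMIs, too few to be counted as measured.

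**Figure D5:**
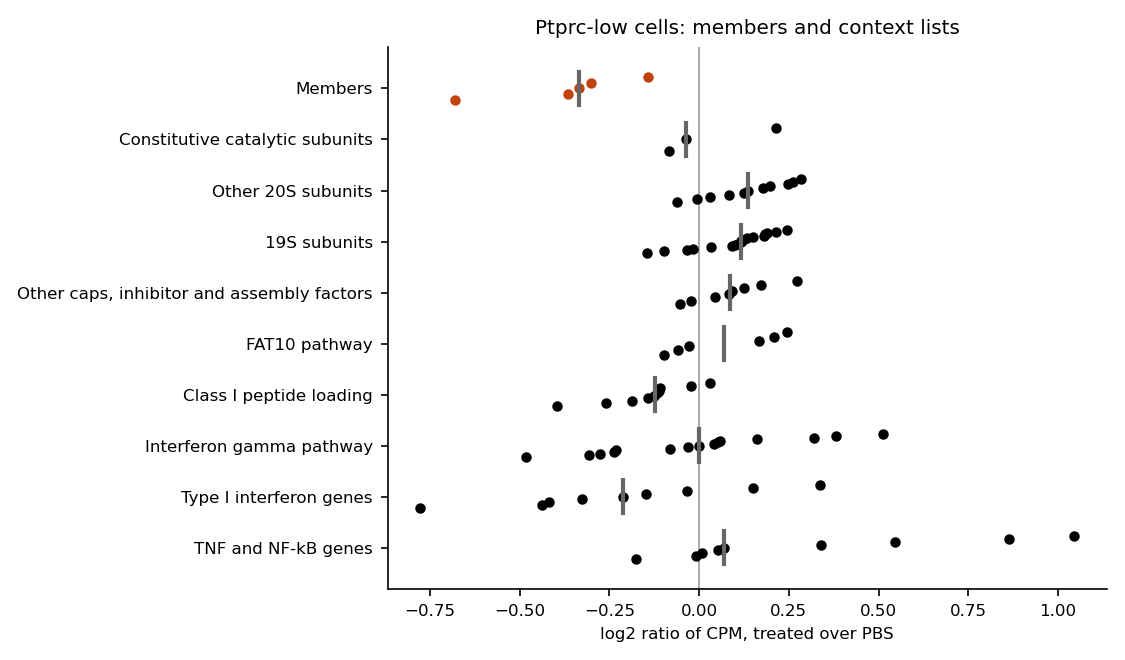
Log2 ratio of CPM, treated over PBS (x axis), in Ptprc-low cells for the 5 measured members (orange) and the measured genes of 9 lists (black), 1 point per gene, with the list median as a grey bar. The members lie between -0.68 and -0.14, and the medians of the other 20S subunits and of the class I peptide loading genes are 0.14 and -0.12.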

How the data were processed

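The deposited matrices hold UMI counts per gene and barcode, whole numbers that the authors did not normalize; STAR and mm10 are named in the submitters' processing notes, while for the counting program, annotation and strand setting the sources used here name none. The libraries held 10002 treated and 8962 PBS barcodes with 115576457 and 145045294 UMIs, and no barcode had fewer than 500 UMIs. Barcodes with at least 200 genes and at most 20% mitochondrial UMIs were kept, and the highest Scrublet scores were removed at 0.8% per 1000 barcodes (694 treated, 569 PBS). With scanpy 1.11.5, counts scaled to 10000 and log-transformed gave 2000 variable genes, without the members, 30 components, 15 neighbours and Leiden clusters at resolution 1 on both libraries together. A cluster was named when 3 or more of a type's markers, and over 50% of those detected, were in 5% of its cells and at 25% of the top cluster's level. Ptprc-low clusters had under 100 CPM of Ptprc and a median of at least 10000 UMIs; that class, the naming rule and the clusters' use as units followed earlier results. UMIs were summed per class and scaled to CPM, with exact Poisson intervals for levels, exact conditional binomial intervals for ratios and exact Clopper-Pearson intervals for shares, at 95%; 0 UMIs were taken to allow 3. A gene was measured with at least 50 UMIs in both libraries together, and called at 1.5-fold. The intervals were tried only on simulated independent counts, which lack the spread between cells and between animals. That check therefore covers counting error only. The named genes are the 6 members and, per list, up to 3 measured genes of largest absolute whole-tumour log2 ratio, with the 8 genes most like Ubd and most like the other members; Gm16156, Gm20496, Hmga2, Rhox5 and the overlapping genes were added after their values were seen. The members and lists were chosen with earlier results of these data known. Positions are GRCm38 ones; GENCODE M21 holds 32235 of the 32285 gene identifiers.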

Additional observations from a re-analysis of the deposited data

Results flagged for a closer look

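The values below are given because a member was higher in treated than in PBS cells of one class and lower in another, each with an interval that excludes 1. The difference between classes was not tested, as there is 1 library per group. Ubd had a log2 ratio of 2.35 in cluster 9, against -0.68 in Ptprc-low cells and -0.66 in Ptprc-low cells with few UMIs. The cluster 9 value rests on 4 treated cells. Psmb9 had 0.43 in CD8-effector-like T cells, against -0.33 in Ptprc-low cells, -0.24 in those with few UMIs and -0.11 in macrophage-like cells. T-like cells as a whole, which include the CD8-effector-like ones, had -0.26 for Psmb9 and -0.18 for Psme2, and a sub-cluster led by genes of dividing cells made up 38.2% of the treated and 24.1% of the PBS CD8-effector-like cells. Psme2 had 0.28 in CD8-effector-like T cells, against -0.14 in Ptprc-low cells, -0.13 in those with few UMIs, -0.24 in macrophage-like cells and -0.32 in monocyte-like cells.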

How the results depend on the processing

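No paired analysis was possible because each group has 1 library. For the same reason no library could be left out. The whole-tumour log2 ratio of Ubd, -0.77, was -1.21 with each cell weighted equally, -1.22 with cells thinned to 1000 UMIs, -0.68 with treated classes weighted by the PBS shares of UMIs and -0.57 with treated clusters so weighted. With equal weight for each of 14 classes of at least 10 cells it was 0.0033, because that brings in the endothelial-like class, where 1 treated cell holds 80 Ubd UMIs; over the 12 classes of at least 20 cells it was -0.75. This setting and the weighting by cluster were added after the data had been seen. Over the alternatives the whole-tumour values of Psmb9 were -0.29 to -0.08, of Psme1 -0.30 to -0.07, of Psme2 -0.23 to -0.07 and of Psmb8 -0.65 to -0.30. The median of the immunoproteasome members, -0.21, was -0.17 after thinning, -0.29 with the PBS class weights and -0.28 with the PBS cluster weights. In Ptprc-low cells 10 alternatives gave Ubd values of -0.90 to -0.57 and medians of -0.40 to -0.31. The median of B-like cells reached 0.16 and that of Ptprc-low cells with few UMIs 0.14 in an alternative; those of the interferon gamma and type I interferon lists in the whole tumour were 0.088 and 0.12, and -0.063 and -0.20 with the PBS class weights. With at least 10 in place of 50 UMIs, 2240 in place of 1347 genes were 1.5-fold higher and 1723 in place of 772 lower in the whole tumour, and 1444 in place of 604 and 1862 in place of 738 in Ptprc-low cells. Monocyte-like cells were not compared when libraries were clustered apart or at the other resolutions, as a library then had under 50 cells of that name. The causes of the other changes were not tested.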

Other observations

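In macrophage-like cells the type I interferon list was lower as well, in 8 of 9 genes, with a median log2 ratio of -0.47. Of all genes measured there, 50.2% were lower. Isg15 stood at 116 CPM in treated and 214 CPM in PBS macrophage-like cells (-0.88), and Ifit1 at 70.1 and 110.1 CPM (-0.65). Nlrc5 had -0.36 there and Irf8 -0.20. The list counted 3 genes at least 1.5-fold lower, in a class where 6.14% of genes were. T-like cells had the opposite direction, with 8 of 9 genes higher in the treated library and a median of 0.37. Isg15 had -0.40 there, and 55.4% of all genes measured in T-like cells were lower. The make-up of T-like cells differs between the libraries. A T sub-cluster led by genes such as Ifit3, Usp18 and Rsad2, which are on this list, had 39 treated and 4 PBS cells. Its part in the T-like values was not tested. Monocyte-like cells had 4 of 8 higher and a median of 0.13, where 53.2% of all genes were lower. The difference between classes was not tested. In macrophage-like cells the other 20S subunits were higher in 9 of 11 cases, with a median of 0.13, while Psmb5 and Psmb6 had -0.25 and -0.16. The other 20S subunits were mostly higher in Ptprc-low cells too, but not in T-like or monocyte-like cells.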
